A study of Mus musculus with 9 samples.

Results

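The genes described here build the hair. They encode the keratins of the inner root sheath and of the hair shaft and the keratin-associated proteins (*Krtap* genes). Trichohyalin, an enzyme and membrane proteins of the follicle, and 4 transcription factors of the hair follicle complete the set. All these genes were chosen by name, as 29 symbols plus every gene whose symbol starts with Krtap. Of the 17943 genes in the table, 81 were members: 28 of the 29 named symbols and 54 *Krtap* genes, with *Krtap10-10* in both sets. *Krt85* was not analysed here. Skin RNA was sequenced from 5 control mice and 4 *Supt6*-KO mice, with 1 library per mouse, and the comparison asked how the loss of SPT6 from keratinocytes changed the skin transcriptome. SPT6 is a histone chaperone and elongation factor that travels with RNA polymerase II.

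The *Supt6*-KO mice carried K14-CreERT and Supt6 flox/flox and were given tamoxifen. Skin was taken 10 days after the last injection. The study describes the sequenced *Supt6*-KO skin as lesional and the control skin as matched to it by site. The K14 promoter drives the tamoxifen-dependent Cre in basal keratinocytes, which include those of the follicle's outer root sheath, so dermal cells were not targeted. The control mice are labelled wild type, while the study describes its controls as Supt6 fl/fl mice given corn oil without tamoxifen, and which of these genotypes the sequenced controls had was not settled here. Deletion, Cre and drug cannot be told apart in these groups. The labels give ear skin as the tissue, whereas the methods give dorsal skin, and the age and sex of these mice were not given in the labels. Control libraries held 29627334 to 30491190 counts and *Supt6*-KO libraries 30597190 to 30967109 counts.

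Hair grows in cycles. During growth, matrix cells at the base of the follicle divide and then differentiate into concentric layers: an inner root sheath, which hardens first, moulds the shaft and later breaks down, and the cuticle, cortex and medulla of the shaft itself. Hair keratins form filaments in the shaft, and keratin-associated proteins, rich in cysteine or in glycine and tyrosine, cross-link them. In resting follicles most of these genes are silent.

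Levels below are CPM, the reads of a gene scaled to a common library size, after TMM scaling, which adjusts each library for its composition. *Supt6* itself stood at 74.5, 56.6, 63.6, 91.1 and 96.7 CPM in controls 1 to 5 and at 28.6, 24.1, 21.9 and 28.4 CPM in *Supt6*-KO mice 1 to 4. The groups did not overlap (log2 fold change -1.57, SE 0.18, edgeR adjusted p = 1.3e-05). The remaining signal can come from any cell of the skin piece.

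Most structural members held the same short run of letters in their promoters. RefSeq promoters of build GRCm38.p6, running from 250 bases before to 50 bases after the transcription start, were available for 68 members. The letters TATAAA, searched on both strands, were present in 53 of them (77.9%), compared with 14.2% of 27025 promoters of the same length. All 7 promoters of inner root sheath keratins held TATAAA, as did 40 of 49 *Krtap* promoters and 5 of 7 hair keratin promoters. Neither of the 2 transcription factor promoters (*Msx2* and *Foxn1*) did. In a window chosen after the hits had been seen, with the first T 35 to 20 bases before the start on the gene's own strand, 33 members (48.5%) held the letters, compared with 2.05% of all promoters. The letters CTTTGAT were in 5.88% of the member promoters and 3.72% of all promoters, and TCGTAAA in 1.47% and 0.625%. Member promoters also had a lower GC content, with a median of 42.5% compared with 52.7%. A match of letters is a description of the sequence and not a bound site.

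The 80 bases directly before the start of 6 members follow, from RefSeq GRCm38.p6, each 5′ to 3′ on the gene's strand, which is the minus strand for all 6. The start is that of the RefSeq promoter table, which for *Foxn1* lies inside the gene's span (its end is at 78386783) and for the other 5 at the gene's end. Capitals mark TATAAA. The first 4 are abundant members that fell to near 0 in *Supt6*-KO skin, and *Msx2* and *Foxn1* are transcription factors that kept part of their level. The stretches lie at chr15:101743098-101743177 (*Krt71*), chr11:99322952-99323031 (*Krt25*), chr11:100050552-100050631 (*Krt31*), chr16:89487953-89488032 (*Krtap8-1*), chr13:53472781-53472860 (*Msx2*) and chr11:78386609-78386688 (*Foxn1*).
Krt71: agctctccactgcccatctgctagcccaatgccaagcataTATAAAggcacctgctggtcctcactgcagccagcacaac
Krt25: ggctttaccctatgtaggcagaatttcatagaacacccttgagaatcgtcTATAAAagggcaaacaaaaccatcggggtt
Krt31: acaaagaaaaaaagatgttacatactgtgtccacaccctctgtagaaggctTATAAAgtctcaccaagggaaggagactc
Krtap8-1: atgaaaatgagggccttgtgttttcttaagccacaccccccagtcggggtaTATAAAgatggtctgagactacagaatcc
Msx2: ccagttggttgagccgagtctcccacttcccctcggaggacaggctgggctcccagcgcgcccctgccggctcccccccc
Foxn1: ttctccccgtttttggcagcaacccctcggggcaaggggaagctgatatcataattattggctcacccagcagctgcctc
The capitals begin 40 bases before the start in *Krt71*, 30 in *Krt25* and 29 in *Krt31* and *Krtap8-1*. The *Msx2* stretch was 73.8% G and C, compared with 42.5% for *Krt25* and 41.2% for *Krt31*.

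The hair genes were lower in *Supt6*-KO skin, and the controls differed widely among themselves. Of the 79 members that passed the filter of 10 counts over the 9 mice, 77 were lower in edgeR (adjusted p under 0.05, 97.5%), compared with 36.8% of the 16426 genes tested. All 77 were also at least 2-fold lower, compared with 24.9% of all genes. None was higher by edgeR, DESeq2 or limma-voom, whether at an adjusted or an unadjusted p under 0.05 (0 of 79 each), while edgeR put 34.1% of all genes higher, 20.9% at 2-fold or more. The 2 members not called were *Tchh* and *Krt82*. *Krtap13* and *Krtap20-2* had too few counts to test. In bulk skin, fewer cells of a type and less RNA per cell cannot be told apart.

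These counts need 2 limits. In 49 of the 79 members, the 4 *Supt6*-KO libraries together held fewer than 10 counts. These genes passed the filter only through the controls, which favours a lower *Supt6*-KO level from the start. The other 30 had at least 10. The median log2 fold change of the tested members was -7.83, or -6.97 with the 22 members at 0 in every *Supt6*-KO library set at the bound that 3 counts over the group allow, compared with -0.07 for all genes. With libraries scaled to their totals the median of all genes was -0.76 and that of the members -8.44. Without control 1, the highest control, the member median was -6.67 by edgeR with TMM. Library totals called 8970 of all genes lower and 2771 higher, compared with 6050 and 5608 with TMM.

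The controls spanned more than an order of magnitude. The members summed to 4689, 506, 1715, 907 and 122 CPM in controls 1 to 5 and to 86.3, 108, 113 and 108 CPM in *Supt6*-KO mice 1 to 4. Control 1 was thus 38.5-fold above control 5, and control 5 stood just above the *Supt6*-KO mice. A few genes carried that last comparison: without the 4 transcription factors and *Krtap3-2*, which made up 81.1% of the sum in control 5, control 5 was at 23.0 CPM and the *Supt6*-KO mice at 43.5 to 83.4 CPM. With *Tchh* left out as well, control 5 lay inside their range of 11.3 to 29.7 CPM, but above it as a share of library totals (0.00262%, compared with 0.00103% to 0.00232%). As a share of all counts, the members took 0.583% of the library of control 1, 0.016% of that of control 5 and 0.00674% to 0.00987% of the *Supt6*-KO libraries. The coefficient of variation among controls had a median of 125% over the members, compared with 15.6% over all genes, of which 1 in 10 exceeded 49.1%.

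The order of the control mice was nearly the same for every gene. Control 1 was the highest control for all 79 tested members, compared with 11.2% of all genes. Control 3 came second for 74. Control 5 was the lowest for 77, compared with 33.3% of all genes, and held at most 3 counts for 59 members. The members share their libraries and their cells, so this order counts as 1 observation of these 5 mice and not as 79.

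**Figure D1:**
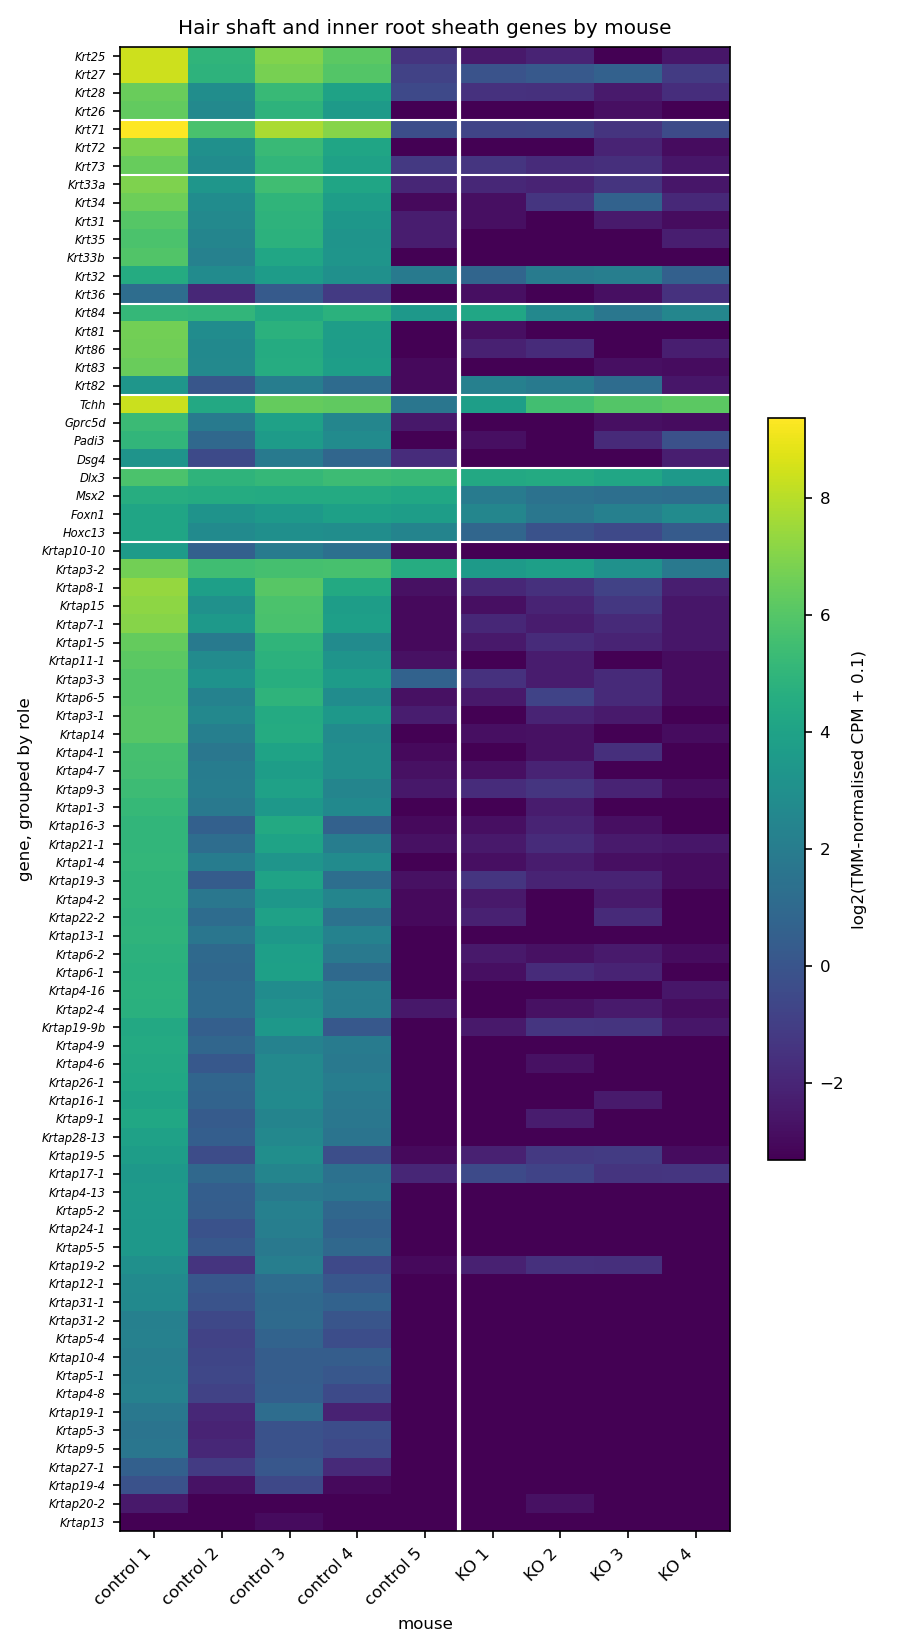
Level of each of the 81 members (rows, grouped by role, log2 of TMM-normalised CPM plus 0.1) in each of the 9 mice (columns, controls left of the white line). Control 1 is brightest and control 5 resembles the *Supt6*-KO mice for most rows. Exceptions include the transcription factors and *Krtap3-2*, where control 5 is above them, and *Tchh* and *Krt82*, where it is below them.

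Because of control 5, the groups overlapped for most members. All 4 *Supt6*-KO mice stood below all 5 controls for 14 of 79 members (17.7%), compared with 31.8% of all genes. Against controls 1 to 4 alone, every *Supt6*-KO mouse was lower for 76 of 79 (96.2%), compared with 33.6% of all genes. The 3 exceptions were *Tchh*, *Krt82* and *Krt36*. Control 5 was left out of this count because of its low values in the same members, so the count is a description and not a test. It also includes the 49 members with fewer than 10 counts over the *Supt6*-KO libraries. Control 5 lay within or below the range of the *Supt6*-KO mice for 65 members. The 5 most abundant of the 14 members without overlap were *Krt71*, *Krt25*, *Krtap3-2*, *Dlx3* and *Krt28*, and in 4 of the 14 control 5 held fewer than 10 counts. Overlap depended on the scaling: with library totals, 22 of 79 members were free of it, compared with 49.0% of all genes, and control 5 lay within or below the *Supt6*-KO range for 57.

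The number of members called lower differed between tests. limma-voom with sample quality weights, which works on log values, called 8 members lower, compared with 39.3% of all genes. Those 8 were *Msx2*, *Foxn1*, *Dlx3*, *Hoxc13*, *Krtap3-2*, *Krtap3-3*, *Krt84* and *Krt32*. The folds stayed large: the median log2 fold change of the tested members was -6.71 in limma-voom, compared with -7.83 in edgeR. Without control 5, limma-voom called 65 members, compared with 39.6% of all genes, and without control 1 it called 26. It called 7 to 13 with any of the other mice left out. DESeq2 called 76 with all 9 mice.

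**Figure D2:**
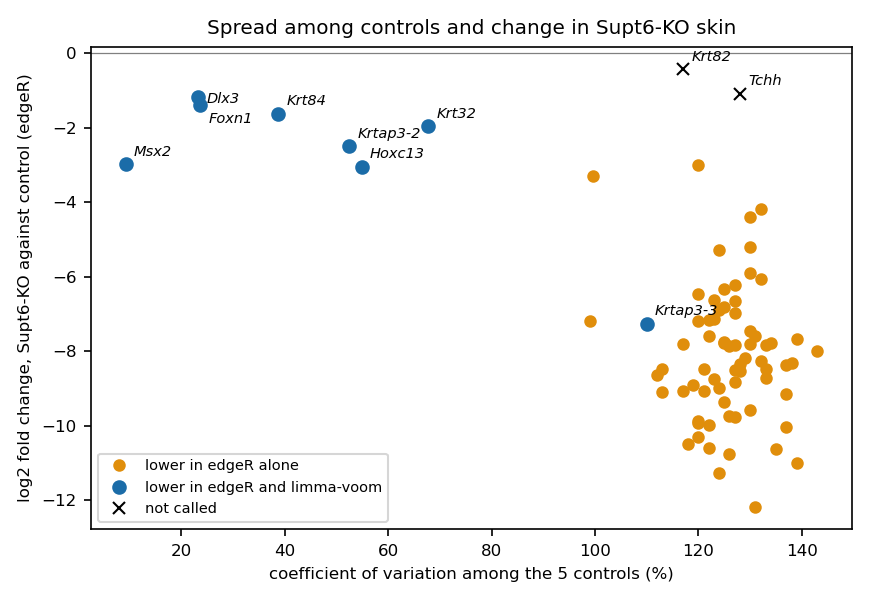
Coefficient of variation among the 5 controls (x axis, percent) against the edgeR log2 fold change of *Supt6*-KO over control (y axis) for the 79 tested members. Blue points are the 8 members lower in both edgeR and limma-voom, orange points were lower in edgeR alone, and crosses are *Tchh* and *Krt82*, which were not called. For the 22 members at 0 in every *Supt6*-KO library the fold change is a fitted value and not a bound. *Msx2* had the smallest spread (9.27%).

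Sex markers also differed among the controls. Summed CPM of Y-linked genes was 0.08 in control 1 and 0.055 in control 3, compared with 152 to 201 in controls 2, 4 and 5 and 229 to 280 in the *Supt6*-KO mice. Controls 1 and 3, the pair without Y-linked counts, were also the pair with the highest hair gene sums. Among the mice with Y-linked counts alone, 71 of 78 members tested were lower in edgeR, compared with 33.5% of all genes, with a median log2 fold change of -5.90. With a Y-linked covariate over all 9 mice, 72 of 79 were lower, compared with 34.4% of all genes. The part of sex in the spread among controls was not tested beyond this.

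The inner root sheath keratins fell to near 0. These are the type I keratins *Krt25* to *Krt28* and the type II keratins *Krt71* to *Krt73*, which pair to form the filaments of the sheath. All 7 were lower in edgeR, compared with 36.8% of all genes, but 3 of them (*Krt25*, *Krt26* and *Krt72*) held fewer than 10 counts over the *Supt6*-KO libraries. Log2 fold changes ran from -6.90 (*Krt27*) to -10.75 (*Krt26*, which rests on 1 count in *Supt6*-KO skin and has a counting interval of 424- to 93324-fold). Without control 1 these became -5.81 and -9.65, and without *Supt6*-KO mouse 3, which held the 1 count, *Krt26* was at -12.67, a fitted value. They summed to 1695, 143, 586, 329 and 2.34 CPM in controls 1 to 5 and to 1.96, 2.16, 2.20 and 1.40 CPM in *Supt6*-KO mice 1 to 4. By this TMM-scaled sum control 5 stood just above the highest *Supt6*-KO mouse. As a share of library totals the gap was wider, with 0.000308% in control 5 and 0.000127% to 0.000155% in *Supt6*-KO skin, while the lowest of the other controls was far above both.

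*Krt71*, on chromosome 15 (101733949 to 101743097), was the most abundant of them. Its counts were 24564, 1946, 7737, 4970 and 27 in controls 1 to 5 and 12, 11, 6 and 18 in *Supt6*-KO mice 1 to 4. No *Supt6*-KO library reached control 5, and control 5 was far below its own group (log2 fold change -8.73, SE 1.6, edgeR adjusted p = 0.00046). Without control 1 the log2 fold change of *Krt71* was -7.66. *Krt25*, on chromosome 11 (99315516 to 99322951), had 12511, 1150, 4540, 2632 and 11 counts across the controls and 2, 3, 0 and 2 in *Supt6*-KO skin. The groups again did not overlap, and the level pooled over the controls was 1510-fold that over the *Supt6*-KO mice (edgeR adjusted p = 0.0004). The log2 fold change of *Krt25* was -10.49, and -9.51 without control 1. *Krt27* had 12575, 1085, 3926, 2345 and 18 counts across the controls and 20, 22, 31 and 10 in *Supt6*-KO skin, so that control 5 fell inside the *Supt6*-KO range. *Krt26* and *Krt72* had 0 counts in control 5, *Krt28* 23 and *Krt73* 13.

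Hair keratins followed the same order of mice, with a few members that departed from it. The type I hair keratins *Krt31* to *Krt36* and the type II hair keratins *Krt81* to *Krt86* are hard keratins, most of them of the shaft. Of the 12 tested, 11 were lower in edgeR, compared with 36.8% of all genes, and 6 of the 12 held fewer than 10 counts over the *Supt6*-KO libraries. Their sums were 749, 93.7, 262, 137 and 14.9 CPM in controls 1 to 5 and 24.9, 13.9, 11.6 and 7.76 CPM in *Supt6*-KO mice 1 to 4. By this TMM-scaled sum control 5 lay inside the *Supt6*-KO range, whereas as a share of library totals it was just above it (0.00196%, compared with 0.000706% to 0.00194%).

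Among the cortex keratins, *Krt33a* had 4451, 370, 1579, 638 and 6 counts across the controls and 4, 3, 6 and 2 in *Supt6*-KO skin (log2 fold change -7.86, SE 1.59, edgeR adjusted p = 0.00093), and the log2 fold change was -6.76 without control 1. *Krt31* had 2437, 226, 1061, 385 and 4 counts across the controls and 1, 0, 2 and 1 in *Supt6*-KO skin, the only hair keratin whose groups did not overlap with TMM. With library totals there were 6, which added *Krt32*, *Krt33a*, *Krt35*, *Krt83* and *Krt84*. *Krt33b* was at 0 in all 4 *Supt6*-KO libraries and in control 5, which makes it at least 582-fold lower by a floor of 3 counts over the group, or 251-fold without control 1. *Krt34* had 3489, 261, 1151, 487 and 1 counts across the controls and 1, 6, 33 and 5 in *Supt6*-KO skin, with *Supt6*-KO mouse 3 well above its group. *Krt35* gave 3 counts in *Supt6*-KO skin, all in mouse 4, and its pooled level in controls was 602-fold higher (95% interval 206 to 2920, counting error only). Its log2 fold change of -9.09 became -8.24 without control 1 and -12.25 without *Supt6*-KO mouse 4, a fitted value with no *Supt6*-KO counts left.

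*Krt81*, *Krt83* and *Krt86* are near-identical type II genes in a cluster on chromosome 15, and RSEM divided shared reads between them, so their single values are uncertain. *Krt81* had 1 count in *Supt6*-KO skin, *Krt83* 2 and *Krt86* 10, compared with 5536, 4864 and 5176 in the controls. All 3 were lower in edgeR. The counting interval of the pooled fold was 504 to 110892 for *Krt81* and 341 to 10184 for *Krt83*. Control 1 held 68.8% and 68.1% of their control counts.

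Other hair keratins were not lost to the same extent. *Krt84* had 1314, 1190, 739, 1001 and 428 counts across the controls and 437, 123, 70 and 153 in *Supt6*-KO skin (log2 fold change -1.62, SE 0.48, edgeR adjusted p = 0.011), and the log2 fold change was -2.37 without *Supt6*-KO mouse 1. By CPM, *Supt6*-KO mouse 1 (18.3) lay above control 5 (10.9) and below the other controls. The coefficient of variation of *Krt84* among controls was 38.8%, compared with a median of 123% over the hair keratins. *Krt32*, a cuticle keratin, had 835, 254, 467, 296 and 140 counts across the controls and 40, 79, 93 and 39 in *Supt6*-KO skin (log2 fold change -1.96, SE 0.52, edgeR adjusted p = 0.0056), and control 5 (3.56 CPM) lay inside the *Supt6*-KO range of 1.40 to 4.25 CPM. *Krt36* was rare, with 84, 6, 40, 13 and 0 counts across the controls and 1, 0, 1 and 7 in *Supt6*-KO skin. Its edgeR adjusted p was 0.046, and DESeq2 gave 0.055.

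*Krt82*, another cuticle keratin, did not follow the rest. Its counts were 374, 35, 144, 76 and 1 in the controls and 107, 74, 47 and 2 in *Supt6*-KO skin. The 2 groups overlapped over nearly their whole range, and *Supt6*-KO mice 1 to 3 were higher than controls 2 and 5 (log2 fold change -0.42, SE 1.03, edgeR adjusted p = 0.73). Among the mice with Y-linked counts its log2 fold change was 1.33.

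Trichohyalin, an arginine-rich protein that hardens the inner root sheath and the medulla, was the other member that was not called. *Tchh* had 12238, 725, 2999, 2848 and 121 counts across the controls and 330, 943, 1343 and 2009 in *Supt6*-KO skin. *Supt6*-KO mice 2 to 4 reached 45.2 to 72.2 CPM, close to controls 3 and 4 (83.0 and 77.0 CPM) and above controls 2 and 5 (19.8 and 3.08 CPM). The difference did not pass the test (log2 fold change -1.08, SE 0.94, edgeR adjusted p = 0.32). Its sign turned among the mice with Y-linked counts (log2 fold change 0.53) and without control 1 (0.07), again without passing. *Tchh* was 2.53% to 8.5% of the summed member CPM in the controls and 16% to 66.5% in *Supt6*-KO skin.

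*Padi3*, *Gprc5d* and *Dsg4* were lower in edgeR, compared with 36.8% of all genes. *Gprc5d* and *Dsg4* held fewer than 10 counts over the *Supt6*-KO libraries and passed the filter only through the controls. *Padi3*, which encodes the enzyme that converts arginines of trichohyalin to citrulline, had 1232, 67, 439, 252 and 0 counts across the controls and 1, 0, 4 and 22 in *Supt6*-KO skin (log2 fold change -5.27, SE 1.48, edgeR adjusted p = 0.0074). Of its 27 counts in *Supt6*-KO skin 22 were in mouse 4, and its log2 fold change was -7.09 without that mouse and -4.24 without control 1. *Gprc5d*, a receptor gene of differentiating hair cells, had 1472, 134, 557, 206 and 3 counts across the controls and 0, 0, 1 and 1 in *Supt6*-KO skin, without overlap. *Dsg4*, a desmosomal cadherin of the hair shaft, had 352, 23, 133, 63 and 8 counts across the controls and 0, 0, 0 and 3 in *Supt6*-KO skin. *Padi3* in control 5 was listed at 0, below 3 of the 4 *Supt6*-KO mice.

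**Figure D3:**
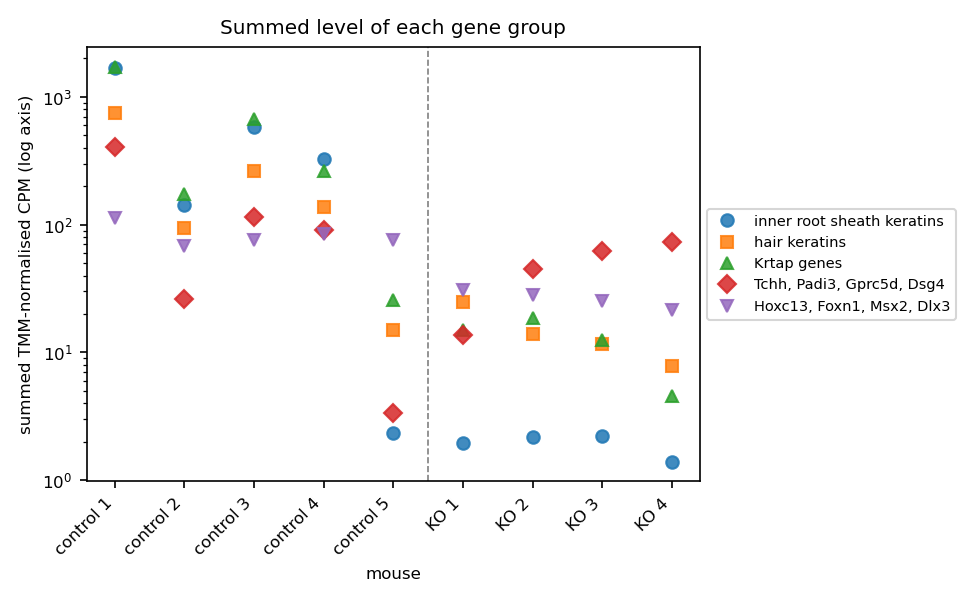
Summed TMM-normalised CPM (log axis) of 5 groups of hair genes in each mouse. The transcription factor sum (purple) of control 5 is 75.4, among the other controls, whereas its inner root sheath keratin sum (blue) is 2.34, next to the *Supt6*-KO mice at 1.40 to 2.20.

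The 4 transcription factors fell less, and here control 5 stood with its own group. *Hoxc13*, *Foxn1*, *Msx2* and *Dlx3* are expressed in the matrix and in differentiating hair cells, where HOXC13 and FOXN1 are known activators of hair keratin genes. They summed to 113, 68, 75.2, 84.5 and 75.4 CPM in controls 1 to 5 and to 30.8, 28.1, 25.3 and 21.6 CPM in *Supt6*-KO mice 1 to 4. The highest control was 1.3-fold the lowest for *Msx2*, 1.8-fold for *Dlx3*, 1.9-fold for *Foxn1* and 3.41-fold for *Hoxc13*, compared with 956-fold for *Krt71*. In bulk skin their signal can also come from cells outside the follicle, and which cells supplied it was not tested. All 4 genes were lower in edgeR and in limma-voom, compared with 36.8% and 39.3% of all genes. For each of them all 4 *Supt6*-KO mice were below all 5 controls, compared with 31.8% of all genes. An exact two-sided permutation test of the mean CPM gave p = 0.0159 for each, the smallest value that 5 mice against 4 allow.

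*Msx2* was the steadiest member among controls, with a coefficient of variation of 9.27%. Its counts were 906, 809, 780, 784 and 733 in the controls and 90, 55, 52 and 61 in *Supt6*-KO skin, or 21.6 ± 2.00 CPM (SD, n = 5) and 2.74 ± 0.703 CPM (SD, n = 4). Control 5 was the lowest control, but by a small margin (log2 fold change -2.97, SE 0.19, edgeR adjusted p = 3.5e-07).

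*Hoxc13*, on chromosome 15 (102921131 to 102928814), had 652, 243, 288, 271 and 201 counts across the controls and 41, 17, 13 and 32 in *Supt6*-KO skin (log2 fold change -3.04, SE 0.42, edgeR adjusted p = 6.1e-05). Control 1 stood apart at 17.4 CPM, and the other controls lay between 5.12 and 7.97 CPM. *Foxn1*, the gene mutated in nude mice, had 643, 331, 409, 539 and 528 counts across the controls and 134, 65, 99 and 189 in *Supt6*-KO skin (log2 fold change -1.38, SE 0.25, edgeR adjusted p = 0.00041). *Dlx3* had 2032, 1101, 1241, 1530 and 1500 counts across the controls and 471, 448, 390 and 319 in *Supt6*-KO skin (log2 fold change -1.17, SE 0.21, edgeR adjusted p = 0.00042). For *Foxn1* and *Dlx3*, control 5 was above controls 2 and 3.

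**Figure D4:**
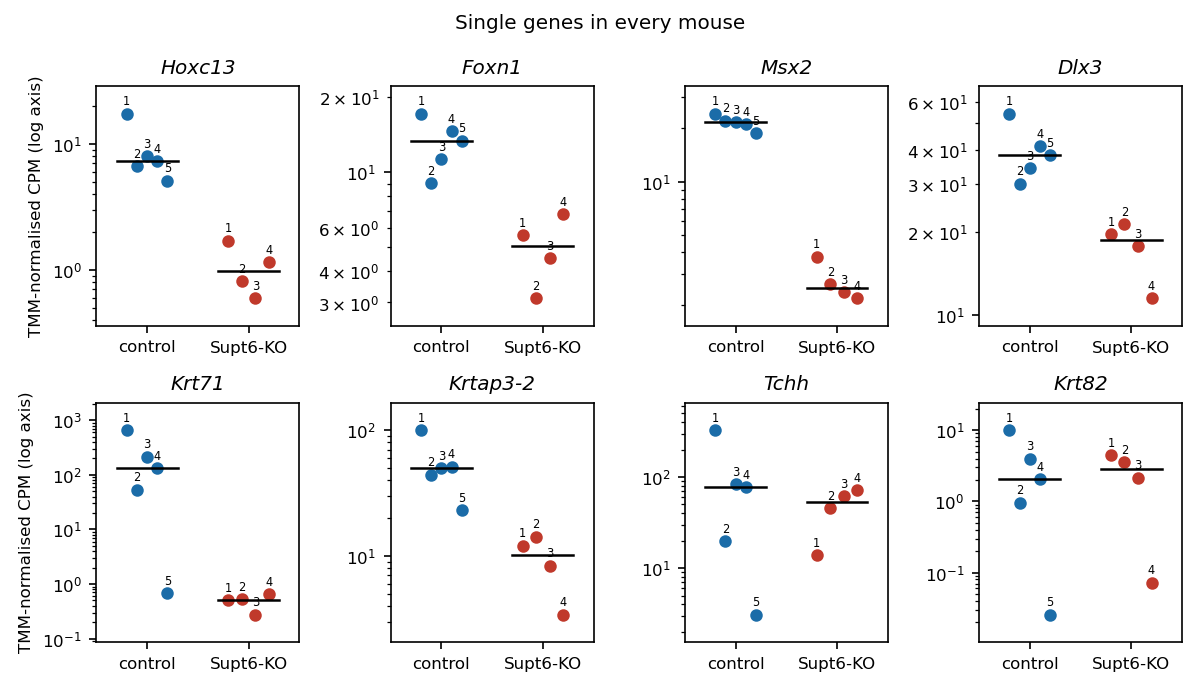
TMM-normalised CPM (log axes that do not start at 0 and differ between panels) of 8 members in each control (blue, mice 1 to 5) and *Supt6*-KO mouse (red, mice 1 to 4), with the group median as a line. *Krt71* in control 5 (0.687) sits at the *Supt6*-KO level, *Msx2* in control 5 (18.7) sits with the controls, and *Tchh* and *Krt82* overlap.

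Keratin-associated proteins made up the largest set. All 52 *Krtap* genes tested were lower in edgeR, compared with 36.8% of all genes, but 38 of them held fewer than 10 counts over the *Supt6*-KO libraries and passed the filter only through the controls. They had log2 fold changes from -2.50 (*Krtap3-2*) to -9.35 (*Krtap11-1*) among those with any count in *Supt6*-KO skin. With the genes at 0 set at the bound of 3 counts over the group, the median was -6.96, and -5.88 without control 1, when 51 of the 52 were lower. With the Y-linked covariate *Krtap19-2*, *Krtap19-4*, *Krtap19-5* and *Krtap19-9b* were no longer called. Their log2 fold changes were then -1.05, -2.94, -1.19 and -2.15. The *Krtap* genes summed to 1723, 175, 677, 265 and 25.7 CPM in controls 1 to 5 and to 14.9, 18.7, 12.4 and 4.6 CPM in *Supt6*-KO mice 1 to 4. With TMM the groups were free of overlap for 3 of the 52 (*Krtap3-2*, *Krtap3-3* and *Krtap10-10*), and with library totals for 6, compared with 31.8% and 49.0% of all genes. The *Krtap* genes lie mostly in clusters, with 22 on chromosome 11, 23 on chromosome 16, 5 on chromosome 7, 3 on chromosome 10 and 1 on chromosome 1. Counts that were not whole occurred in 39 of the 81 members, keratins included, and single values of those genes are uncertain. *Krtap8-1*, *Krtap15* and *Krtap7-1*, all on chromosome 16, had whole counts.

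*Krtap3-2* accounted for most of what remained. It had 3733, 1615, 1795, 1890 and 912 counts across the controls and 289, 296, 183 and 95 in *Supt6*-KO skin (log2 fold change -2.50, SE 0.46, edgeR adjusted p = 0.00046). Each *Supt6*-KO mouse was below control 5, the lowest control. *Krtap3-2* was 5.79% to 25.2% of the *Krtap* CPM in controls 1 to 4, 90.5% in control 5 and 67.3% to 81.0% in *Supt6*-KO skin. Its neighbours by name differed: *Krtap3-3* had 58 counts in control 5 and 13 over the 4 *Supt6*-KO libraries, and *Krtap3-1* had 4 and 5.

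The most abundant *Krtap* genes after it were nearly absent from *Supt6*-KO skin. *Krtap8-1* had 6010, 511, 2381, 759 and 2 counts across the controls and 4, 5, 10 and 3 in *Supt6*-KO skin. *Krtap15* had 5590, 313, 1937, 490 and 1 counts across the controls and 1, 3, 7 and 2 in *Supt6*-KO skin. *Krtap7-1* had 4955, 415, 1907, 533 and 1 counts across the controls and 4, 2, 4 and 2 in *Supt6*-KO skin. For all 3, control 5 held no more counts than the lowest *Supt6*-KO mouse, and controls 1 to 4 were far above. *Krtap1-5* had 3066, 129, 1126, 251 and 1 counts across the controls and 2, 4, 3 and 2 in *Supt6*-KO skin, with the same order. *Krtap10-10* had 466, 51, 136, 90 and 1 counts across the controls and 0 in every *Supt6*-KO library.

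Per length of transcript, in the authors' TPM values, small *Krtap* genes and inner root sheath keratins led the members. The median over the 5 controls was 132 TPM for *Krtap8-1*, 120 for *Krt71*, 100 for *Krtap3-2*, 84.2 for *Krt27* and 79.9 for *Krtap7-1*, while *Msx2* stood at 19.0 and *Hoxc13* at 5.43. The ranges of *Krtap8-1* (0.37 to 1018 TPM) and *Krt71* (0.70 to 564 TPM) overlapped over most of their width, so the order of such neighbours is within the spread between mice. The authors' TPM values covered 1 of the 4 *Supt6*-KO mice, so this scale was used for controls only.

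Within the controls, the hair genes did not all scale together. Control 3 had 2.09 times the CPM of control 4 at the median over members. The ratio was 0.925 for the transcription factors, 2.18 for the inner root sheath keratins and 2.01 for the hair keratins. *Krtap* genes of chromosome 16 had a median ratio of 4.16, compared with 1.87 for those of chromosome 11. Among members given a ratio, the 4 genes of the *Krtap19* family had a median of 8.69 and *Krtap16-3* was highest at 14.3. *Krtap19-1*, *Krtap19-4* and *Krtap27-1*, with 5, 1 and 7 counts in control 4, were given no ratio. The *Krtap19* family was 6.16% of the *Krtap* CPM in control 3, 4.44% in control 1, 1.83% in control 4, 2.11% in control 2 and 0.397% in control 5. These are values of single mice, without a test. Controls 3 and 4 also differed in summed CPM of Y-linked genes (0.055 and 174), and the part of this in the ratios was not tested.

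**Figure D5:**
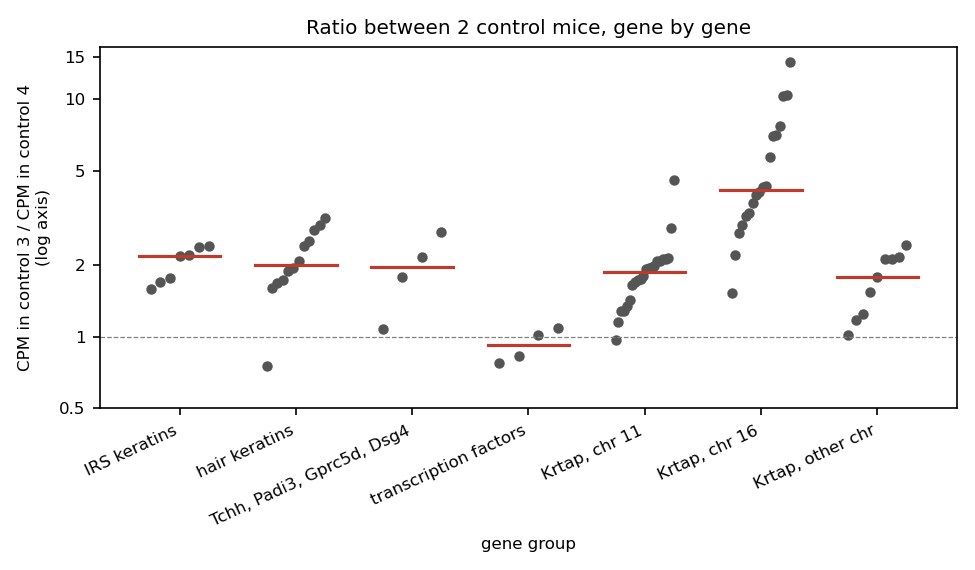
Ratio of CPM in control 3 to CPM in control 4 (y axis, log scale) for the 76 tested members given a ratio, by gene group and, for *Krtap* genes, chromosome (chr). *Krtap19-1*, *Krtap19-4* and *Krtap27-1*, with few counts in control 4, were given none. Red lines are medians, from 0.925 for the transcription factors to 4.16 for *Krtap* genes of chromosome 16.

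Other genes listed for hair and nail differentiation gave a mixed picture. Of these 24 further genes, 13 were lower and 6 higher in edgeR, compared with 36.8% and 34.1% of all genes. In bulk skin their signal can also come from cells outside the follicle, which was not tested. Among the 4 most abundant, *Krt80* was lower (log2 fold change -1.74, edgeR adjusted p = 2e-05), as was *Tgm3*, the transglutaminase that cross-links trichohyalin (-0.61, 0.0083). The metallothionein *Mt4* (2.63, 0.0003) and the carboxypeptidase *Cpa4* (2.39, 2.1e-05) were higher. These 4 did not share the wide spread of the members among controls. Their coefficients of variation were 7.11% (*Krt80*), 16.2% (*Tgm3*), 20.5% (*Mt4*) and 10.6% (*Cpa4*), compared with a member median of 125%. Of genes chosen after their values were seen, *Gjb6*, which encodes a connexin, had the largest rise of the list, from 2.37 to 7.65 CPM in controls to 152 to 178 CPM in *Supt6*-KO skin (log2 fold change 5.34, edgeR adjusted p = 2e-07). *Psors1c2* (1.83, 0.0088) and *Nradd* (1.82, 2.8e-05) were also higher. With library totals, *Psors1c2* (1.08, edgeR adjusted p = 0.068) no longer passed. Under that scaling 15 of the list were lower and 4 higher, compared with 54.6% and 16.9% of all genes. *Krt39*, *Krt40* and *Crym* fell, with log2 fold changes of -5.33, -7.45 and -5.53. *Krt39* and *Krt40* held 8 and 1 counts over the *Supt6*-KO libraries and passed the filter only through the controls. *Krt87* was at 0 in every *Supt6*-KO library and in control 5. It was at least 609-fold lower by a floor of 3 counts over the group, or 270-fold without control 1. *Prr9* resembled *Tchh*, at 291, 29.3, 136, 48.7 and 1.02 CPM in controls 1 to 5 and 39.7, 76.0, 88.5 and 33.9 CPM in *Supt6*-KO mice 1 to 4 (edgeR adjusted p = 0.49), and it was also chosen after its values were seen.

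Signals that act on the hair matrix were also tested. Of 26 genes of the WNT, hedgehog, BMP, FGF, EDA and NOTCH pathways and matrix transcription factors, 15 were lower and 5 higher, compared with 36.8% and 34.1% of all genes. The 4 most abundant were *Fgfr2*, a receptor (log2 fold change -1.56, edgeR adjusted p = 1.3e-05), *Bmpr1a*, a BMP receptor (0.49, 0.002), *Id3*, a BMP target (0.30, 0.082), and *Ovol1* (0.86, 0.0002). With library totals in place of TMM, 19 were lower and 2 higher (54.6% and 16.9% of all genes), *Bmpr1a* changed sign without passing the test, *Id3* passed it as lower (-0.41, edgeR adjusted p = 0.016) and *Ovol1* no longer passed. Genes chosen after their values were seen went both ways. *Sostdc1*, an inhibitor of WNT and BMP signals, was at 18.7 to 32.3 CPM in controls and 76.2 to 180.0 CPM in *Supt6*-KO skin (log2 fold change 2.47, edgeR adjusted p = 4.2e-06), and *Eda2r*, a receptor, at 3.76 to 6.12 CPM and 9.86 to 16.4 CPM (1.48, 4e-05), both without overlap. *Lef1*, the partner of β-catenin in the hair matrix, was at 2.24 to 7.84 CPM in controls and 0.183 to 0.528 CPM in *Supt6*-KO skin, and *Bmp4* at 9.95 to 15.9 CPM and 1.28 to 2.76 CPM. Neither of these overlapped between groups, and control 5 was inside the range of the other controls for both. *Shh*, the matrix ligand, was at 1.18, 0.383, 0.747, 0.189 and 0 CPM in controls 1 to 5 and at 0 in every *Supt6*-KO library.

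Markers of other parts of the skin moved as well, and their part in the hair gene result was not tested. The counts that follow are set against 36.8% of all genes lower and 34.1% higher. Dermal papilla markers were lower in 8 of 10 (*Wif1*, -2.53) and higher in 1 (*Crabp1*, 0.74), and summed to 461 to 782 CPM in controls and 95.1 to 109 CPM in *Supt6*-KO skin. Bulge and outer root sheath markers were lower in 12 of 13 (*Krt15*, -2.65) and higher in 1 (*Krt17*, 1.04), and summed to 2754 to 3585 CPM and 793 to 1477 CPM. Sebocyte markers were lower in 9 of 10 (*Scd1*, -2.76) and summed to 6211 to 7748 CPM and 821 to 1437 CPM. In these 3 lists control 5 was not the lowest control by sum, unlike in the hair genes. Each sum was mostly 1 gene in controls, with *Wif1* at 402 to 674 CPM, *Krt15* at 2074 to 2759 CPM and *Scd1* at 5335 to 6570 CPM. In *Supt6*-KO mouse 4, *Krt15* gave only 239 of the 1477 CPM of its list. Melanocyte markers were higher in 7 of 10 (*Dct*, 1.63) and lower in 2, with sums of 64.4 to 89.5 CPM and 114 to 198 CPM. With library totals, 3 melanocyte markers were higher and 2 lower, compared with 16.9% and 54.6% of all genes. Neither *Crabp1* nor *Krt17* was called under that scaling.

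Markers of dividing cells, of the epidermis between follicles and of neutrophils were also examined. Proliferation markers were higher in 7 of 10. They summed to 112 to 197 CPM in controls, with the most in control 5, and to 224, 247, 399 and 1015 CPM in *Supt6*-KO mice 1 to 4. As a share of library totals, *Supt6*-KO mice 1 and 2 (0.0175% and 0.0166%) lay inside the control range of 0.0134% to 0.026%. Mice 3 and 4 (0.0281% and 0.0924%) lay above it. *Top2a*, the most abundant of these markers, did not pass the test (0.57, edgeR adjusted p = 0.23). Of the keratins of the epidermis between follicles, 3 of 6 were lower and 1 was higher, while *Krt10*, the most abundant, did not pass with TMM (0.19, edgeR adjusted p = 0.56) and was lower with library totals (-0.55, edgeR adjusted p = 0.036). Neutrophil and alarmin markers were higher in 6 of 7 (*S100a9*, 7.78), but *Elane* was too low to test and *Mpo* was lower.

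Cartilage markers, which the plate of the ear can supply, were lower in 9 of 9 tested (*Acan*, -3.55), at 438 to 989 CPM in controls and 75.3 to 90.1 CPM in *Supt6*-KO skin, and *Matn1* had 1 count in 1 control and none in the other 8 mice. Skeletal muscle markers were lower in 7 of 8 (*Acta1*, -2.66). *Hox* genes used in trunk skin summed to 13.1 to 16.3 CPM in controls and 6.47 to 7.72 CPM in *Supt6*-KO skin, nearly all from *Hoxd8* and *Hoxd9*, while *Hoxc8*, *Hoxc10* and *Hoxb7* had at most 2 counts in any mouse. Cartilage transcripts were present in both groups, with no overlap between their sums.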

How the data were processed

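RNA from the skin of 9 mice was sequenced as paired reads on the DNBSEQ platform. By the study's methods and the labels, reads were aligned to mm10 with Bowtie2 2.3.4.3 and RSEM 1.3.1 gave the estimated counts per gene that the authors deposited, without normalization between mice; DESeq2 1.4.5 and HISAT are also listed in the labels. The authors also deposited TPM values, for the 5 controls and *Supt6*-KO mouse 4 only, which were used to compare levels between genes. Of the estimated counts, 9.0% were not whole, and all were rounded. The labels and the methods differ in tissue (ear or dorsal) and in extraction (a kit or TRIzol). Gene identifiers were matched to RefSeq (GRCm38.p6) for 17850 of 17943 genes. The counting was not stated to use strand.

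Groups and mouse numbers came from the sample titles. Genes with at least 10 counts over the 9 mice (16426) were tested with edgeR 4.0.16 in R 4.3.3 (quasi-likelihood, TMM, no covariate, two-sided), with Benjamini-Hochberg adjustment over all genes. The p-values measure the spread between these mice. A floor of 3 counts over the group gave bounds, and intervals at 95% are exact and cover counting error only. DESeq2 1.42.0, limma 3.58.1 (voom with quality weights), library totals, upper-quartile factors, 2 other filters, a replicate block, a Y-linked covariate and each mouse left out were alternatives, and 3 more were added after the data were seen: only mice with Y-linked counts, the mice of the block without it, and voom with each mouse left out. On data simulated for this comparison with 16176 genes tested, edgeR recovered 63% of 2-fold and 98% of 4-fold changes with 14 false calls. There 100 genes were changed at each size, whereas edgeR called 6050 genes lower and 5608 higher in the mice. In the simulation limma-voom was close to edgeR (62% and 96%, 12 false calls), but it called 8 members lower and edgeR 77. The rates were not given separately for genes as variable as the members (median coefficient of variation among controls 125%). The simulation therefore cannot decide between these 2 counts of members.

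Members and lists were chosen with earlier results of these data known. Named with values were all symbols of the rule, the 5 most abundant *Krtap* genes, the most abundant genes without overlap, and up to 4 genes of each other list by abundance; all other genes in the text were named after their values were seen. With 5 mice against 4, the smallest two-sided exact permutation p is 0.0159. No set test was run.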

Additional observations from a re-analysis of the deposited data

Results flagged for a closer look

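Among 67 groups of 4 or 5 mice examined for a value far from the rest of its group, 8 stood out, while about 3.4 would be expected by chance. In 7 of the 8 it was control 1, the mouse with the highest hair gene sum. Control 1 had 102 CPM of *Krt81* (median of the controls 13.1), 88.6 CPM of *Krt83* (median 13.6) and 97.6 CPM of *Krt86* (median 13.0), which are near-identical copies and share reads. The summed hair type II keratins of control 1 stood at 333 CPM (median 68.8), mostly from the same 3 genes. *Tchh* in control 1 was 327 CPM (median 77.0), and the sum of *Tchh*, *Padi3*, *Gprc5d* and *Dsg4* was 409 CPM (median 91.1). *Hoxc13* in control 1 was 17.4 CPM (median 7.33). In the eighth, *Krt34* reached 1.51 CPM in *Supt6*-KO mouse 3 (median of the group 0.234). Without control 1, the log2 fold change was 0.07 for *Tchh* and 0.54 for *Krt82*, neither called, and that of *Hoxc13* stayed past the threshold in edgeR.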

How the results depend on the processing

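Under library totals, upper-quartile factors, the replicate block and each mouse left out, edgeR called 75 to 77 of 79 members lower, also at 2-fold or more, DESeq2 called 76, edgeR's filter by expression left 71 of 73, and without a filter 77 of 81 were lower; no member was higher (0) in any of them. Leaving out mice gave 5669 to 6392 lower and 5305 to 5729 higher genes among all tested, a member median of -8.11 to -6.67, and -1.66 to -1.47 for *Supt6*. limma-voom called 8 members, 8 also at 2-fold; without 1 mouse it called 7 to 13 (also at 2-fold), except 26 (25 at 2-fold) without control 1 and 65 without control 5 (65 at 2-fold). A Y-linked covariate gave 72 lower members (median -5.87). With library totals, 2771 of all genes were higher. Signs turned for *Krt82* (1.33) and *Tchh* (0.53) with the Y-linked covariate and in mice with Y-linked counts, and without control 1 (0.54 and 0.07, with ranges over mice left out of -0.84 to 0.54 and -1.40 to 0.07); for *Bmpr1a* (-0.20), *Id3* (-0.41, then passing), *Top2a* (-0.03) and *Krt10* (-0.55, then passing) with library totals; and for *Top2a* with limma-voom (-0.02) and without *Supt6*-KO mouse 4 (-0.19, range -0.19 to 0.80). Leaving out control 1 or 3 or *Supt6*-KO mouse 1, 2 or 3 each lost the calls of *Krt36* and *Krtap19-4*, and *Supt6*-KO mouse 4 that of *Krtap19-4*; the covariate lost *Krt36*, *Krtap19-2*, *Krtap19-4*, *Krtap19-5* and *Krtap19-9b*. The causes were not tested. Mouse numbers correlated weakly between groups (-0.009 to 0.159), so the mice were not treated as paired; with the replicate block 77 members were lower (median -8.07), and 77 in the same mice without it. In members at 3 counts or fewer in a library, depth limits the size of the fold.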
